A study of Mus musculus with 6 samples.

Results

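Collagens are the main structural proteins of the extracellular matrix, and each collagen type is built from alpha chains that are encoded by separate genes. The mouse collagen genes were taken as all protein-coding genes whose symbol is Col, a type number, a and a chain number in a GRCm38 annotation. There were 44 such genes, all of them among the 43629 genes with deposited counts. Of these, 38 passed the filter on low counts that left 15470 genes for the test. Collagen I, II, III, V, XI, XXIV and XXVII chains form fibrils, which give tissue its tensile strength. Collagen IV forms the sheet-like network of basement membranes, which surround cardiomyocytes, endothelium and epicardium, and collagen VI forms beaded microfibrils near the cell surface. In the developing heart most fibrillar collagen is made by fibroblasts and cells of the epicardial lineage, while endothelial cells and cardiomyocytes add basement membrane chains.

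RNA-Seq counts were compared between 3 samples with negative siRNA and 3 samples with DNMT1 siRNA. All 6 came from primary ventricular cells of CD-1 mice at embryonic day 13.5 with no transgene or deletion in the labels. The ventricles of a litter were pooled and cells that stuck early to uncoated flasks were left behind. The remaining cells were transfected with 12 nM of either a control siRNA or a pool of 4 siRNAs against Dnmt1, which encodes the enzyme that copies CpG methylation to the new DNA strand. Cells were sorted with an antibody to VCAM1 72 h after transfection. For the DNMT1 siRNA samples 1 label names DNMT3a in place of DNMT1, whereas their titles and the study's methods name DNMT1, and the titles were followed. Nothing states whether the 3 samples of a treatment were separate litters, so p-values measure the spread between these samples, which may be technical.

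The Dnmt1 gene had normalized counts, which are counts brought to equal library size, of 3446, 2760 and 2878 with negative siRNA and of 772, 786 and 666 with DNMT1 siRNA. Its log2 fold change of DNMT1 over negative siRNA (log2FC) was -2.03 ± 0.109 (SE; adjusted p = 0.000192, edgeR's quasi-likelihood test), and that of Dnmt3a was 0.24 ± 0.0801 (SE; adjusted p = 0.0919). Libraries with negative siRNA held 27852412 to 35896018 counts on genes and those with DNMT1 siRNA held 13739561 to 16186310. Listed marker genes of each cell type were summed as CPM, counts scaled by library size. The 12 cardiomyocyte markers summed to 2147 to 2750 CPM with negative siRNA and 4542 to 5487 with DNMT1 siRNA, and 9 of them were called higher. Over all tested genes 4.26% were called higher and 2.23% lower. Vcam1, whose protein was used for sorting, was the 1 marker of the 12 with a log2FC below 0 (-0.26, adjusted p = 0.148). Markers of other cell types were present in every sample. The 11 fibroblast markers, Dcn, Fbln1 and Dpt among them called lower, summed to 1826 to 2031 CPM against 1609 to 1736. Of the 10 tested, 3 log2FC values were above 0 and 7 below, and Thy1 was higher (log2FC 0.36, adjusted p = 0.0137). The 10 epicardial markers summed to 2198 to 2598 CPM against 2562 to 2690, with Krt19 called lower. Here 5 log2FC values were above 0 and 5 below, and Bnc1 was higher (log2FC 0.33, adjusted p = 0.0414). The 10 smooth muscle and pericyte markers summed to 5501 to 8169 CPM against 4639 to 4830, with Pdgfrb called lower. Acta2, with mean normalized counts of 80679 and 56843, and Tagln, with 46752 and 34653, weighed heavily in this sum. Of the 9 tested, 4 log2FC values were above 0 and 5 below. The 10 endothelial markers summed to 179 to 222 CPM against 342 to 349, with Kdr, Emcn and Npr3 called higher. Npr3 weighed heavily in this sum, with mean normalized counts of 333 and 2232. Of the 10 log2FC values 8 were above 0 and 2 below, and Tek was lower (log2FC -0.35, adjusted p = 0.0373). The 10 macrophage markers summed to 18.5 to 49.0 CPM against 15.8 to 24.9, with Lyz2 called lower and 9 of the 10 log2FC values below 0. The cardiomyocyte, fibroblast, smooth muscle and endothelial sums did not overlap between the treatments, those of the epicardial and macrophage markers did, and their part in the collagen differences was not tested. In these bulk samples, fewer cells of a type and less RNA per cell cannot be told apart.

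Among the 38 tested collagen genes, Col4a3 and Col4a4 showed the largest increases and Col15a1 the largest decrease, and the 6 type IV genes lie in the genome as pairs that start close together. Col4a4 starts at position 82586849 of chromosome 1 (minus strand) and Col4a3 at 82586921 (plus strand), 72 bases apart and pointing away from each other. Col4a1 and Col4a2 on chromosome 8 overlap by 22 bases at their starts, which are 21 bases apart. The starts of Col4a6 and Col4a5 on the X chromosome are 1309 bases apart. RefSeq promoter windows on GRCm38.p6, each 300 bases long with 250 bases before and 50 after the start, were found for 35 of the 44 genes. The windows of 1 gene of each pair and of Col15a1 are printed 5′ to 3′ on the strand of the gene, with each CpG, the site that DNMT1 acts on, in capitals. They show the CpG content at the starts of the called genes with the largest changes and, beside them, of 1 uncalled chain from each of the other type IV pairs. Methylation of these windows was not analysed here. The Col4a4 window is chr1:82586800-82587099 (minus), in which the Col4a4 start is base 251 and the Col4a3 start is base 179, so it covers the space between both genes. The Col4a1 window is chr8:11312777-11313076 (minus), the Col4a5 window is chrX:141475169-141475468 (plus) and the Col15a1 window is chr4:47207762-47208061 (plus), whose RefSeq start lies 149 bases from the start in the gene annotation.
Col4a4: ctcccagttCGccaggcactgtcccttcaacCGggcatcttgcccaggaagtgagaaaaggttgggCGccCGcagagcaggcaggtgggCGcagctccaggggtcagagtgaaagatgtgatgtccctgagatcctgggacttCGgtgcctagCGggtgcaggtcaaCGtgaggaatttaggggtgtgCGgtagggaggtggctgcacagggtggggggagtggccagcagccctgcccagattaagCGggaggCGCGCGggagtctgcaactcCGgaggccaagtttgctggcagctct
Col4a1: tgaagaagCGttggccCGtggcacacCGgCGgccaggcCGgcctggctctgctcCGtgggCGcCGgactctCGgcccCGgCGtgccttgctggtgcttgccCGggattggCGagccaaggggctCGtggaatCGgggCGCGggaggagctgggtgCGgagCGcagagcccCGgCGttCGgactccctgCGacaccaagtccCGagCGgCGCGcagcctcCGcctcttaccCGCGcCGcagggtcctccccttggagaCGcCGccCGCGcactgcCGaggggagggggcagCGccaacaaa
Col4a5: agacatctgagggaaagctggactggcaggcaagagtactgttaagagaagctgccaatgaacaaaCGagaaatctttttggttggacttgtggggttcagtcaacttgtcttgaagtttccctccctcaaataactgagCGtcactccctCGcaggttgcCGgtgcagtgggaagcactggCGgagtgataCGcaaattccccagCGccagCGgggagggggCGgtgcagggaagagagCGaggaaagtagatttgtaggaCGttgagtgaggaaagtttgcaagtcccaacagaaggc
Col15a1: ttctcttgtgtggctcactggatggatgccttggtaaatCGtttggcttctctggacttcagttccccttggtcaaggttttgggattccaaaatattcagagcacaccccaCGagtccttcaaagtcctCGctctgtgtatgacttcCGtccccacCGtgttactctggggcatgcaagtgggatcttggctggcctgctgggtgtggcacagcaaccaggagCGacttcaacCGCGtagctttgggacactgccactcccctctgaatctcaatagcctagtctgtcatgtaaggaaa

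The Col4a4 window held 14 CpGs and the Col4a1 window 37, against a median of 7 (quartiles 3 and 20) over 32851 RefSeq windows. As many CpGs as in Col4a4 were found in 36.3% of all windows, and as many as in Col4a1 in 5.58%. The Col4a5 window held 11 CpGs and that of Col4a6 held 3. The Col15a1 window held 8 CpGs, that of Col7a1 12, that of Col24a1 6 and that of Col9a1 none. The windows of the 3 higher genes that had one ranged from 0 to 14 CpGs with a median of 6, those of 5 lower genes from 8 to 16 with a median of 13, and those of 23 tested genes that were not called from 0 to 37 with a median of 11. Col9a1 and Col18a1, at the ends of 2 of these ranges, had 2 windows each, and the one nearest the annotated start was used. The RefSeq starts of Col1a2, called lower, and Col27a1, not called, lay 804 and 1408 bases from the start in the gene annotation. The ranges of the 3 sets overlapped, and windows of Col1a1, Col4a3 and Col5a2 were not used here. The letters GGGCGG on either strand, the GC box, were in 35.7% of all windows. They occurred once in the Col4a1 and once in the Col4a5 window, but had no match in the windows of Col4a4 and Col15a1. CCAAT, found in 37.4% of all windows, occurred once in the Col4a1 window and once in the Col4a5 window. It had no match in those of Col4a4 and Col15a1. TATAAA, found in 13.6%, had no match in the windows of Col4a4, Col4a1, Col4a5 and Col15a1. GGGCGG holds a CpG of its own, so that match adds to the CpG count.

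With negative siRNA the collagen genes spanned several orders of magnitude per transcript length. Levels were set as reads per kilobase of the longest principal transcript, scaled by library size (RPKM), and their means ± SD (n = 3) were 3920 ± 1001 for Col1a1, the alpha 1 chain of collagen I, and 1940 ± 549 for its partner Col1a2. Col3a1, the only chain of collagen III, followed at 1510 ± 341 RPKM. Col4a1 stood at 1006 ± 107 RPKM, Col5a2 at 800 ± 132 and Col4a2 at 749 ± 86.1. In each negative siRNA sample Col1a2 lay above Col3a1 and Col4a1 above Col5a2. Col5a2 lay above Col4a2 in replicates 1 and 2 and below it in replicate 3. The next were Col5a1 at 308 ± 33.1 RPKM, Col8a1 at 223 ± 15.5, Col11a1 at 107 ± 31.2 and Col4a5 at 107 ± 8.79, of which Col11a1 and Col4a5 did not differ beyond their spread. At the low end, Col2a1, Col6a4, Col6a5, Col19a1, Col22a1 and Col25a1 did not pass the filter. Their raw counts were between 0 and 50 in any sample, and Col6a5 held the 50 in negative siRNA replicate 2. Col22a1 had 1, 0 and 4 counts with negative siRNA and 8, 5 and 9 in the smaller DNMT1 siRNA libraries.

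**Figure D1:**
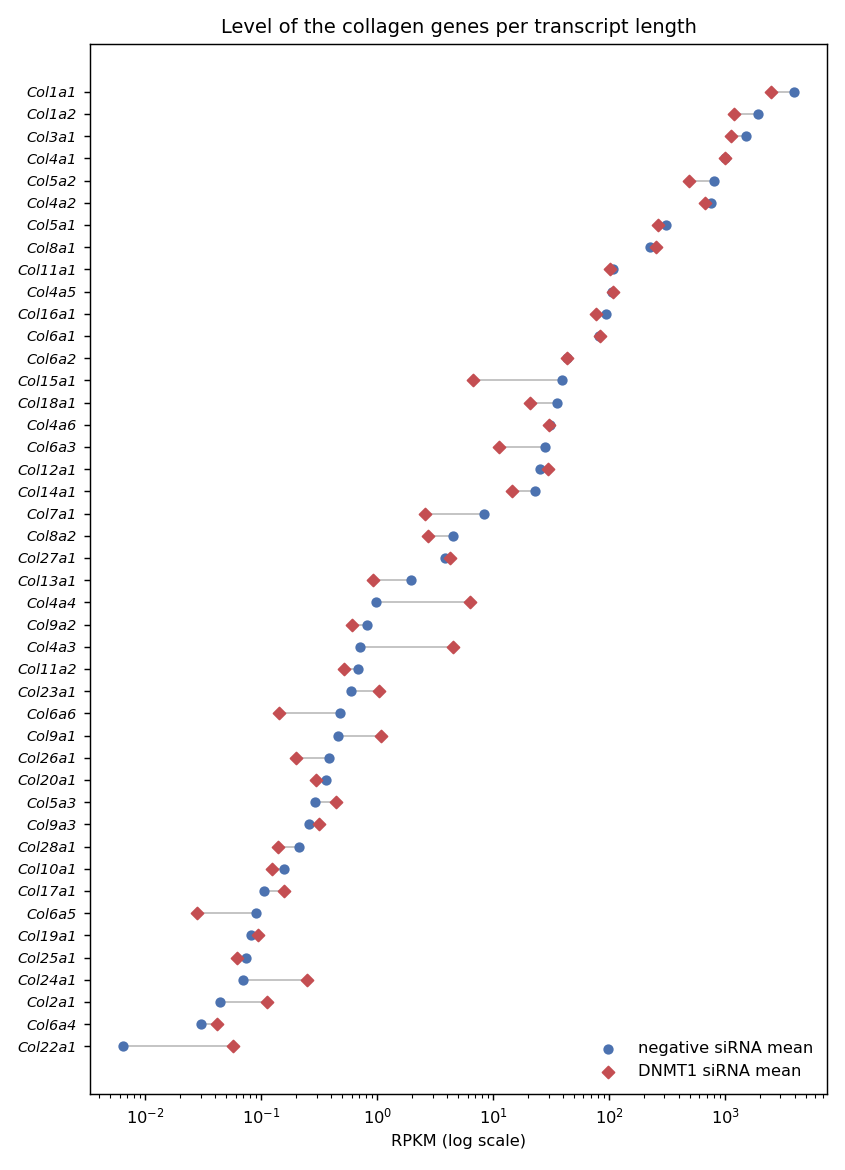
Mean level of the 44 collagen genes with negative siRNA (circles) and DNMT1 siRNA (diamonds), in RPKM on a log axis, n = 3 each, ordered by the negative siRNA mean. Col1a1 leads at 3920 and 2491 RPKM, while Col4a3 and Col4a4 move from below 1 RPKM to 4.46 and 6.30.

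Collagen transcripts made up 5.86, 8.14 and 6.18% of all counts on genes with negative siRNA and 4.95, 4.63 and 4.78% with DNMT1 siRNA. Every DNMT1 siRNA sample lay below every negative siRNA sample, and negative siRNA replicate 2 was the highest. The means ± SD were 6.72% ± 1.24 and 4.79% ± 0.162 (n = 3 each), a difference of -1.94 percentage points, or -1.23 without negative siRNA replicate 2. The fibrillar genes held most of it, with 4.42, 6.46 and 4.53% of counts against 3.45, 3.20 and 3.31%. Col1a1, Col1a2 and Col3a1 together went from a mean of 4.25% to 2.70%. The type IV genes held 1.13, 1.28 and 1.35% against 1.21, 1.14 and 1.18%, and these groups overlapped. The short-chain collagens VIII and X held 0.119, 0.125 and 0.108% against 0.128, 0.127 and 0.131%.

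**Figure D2:**
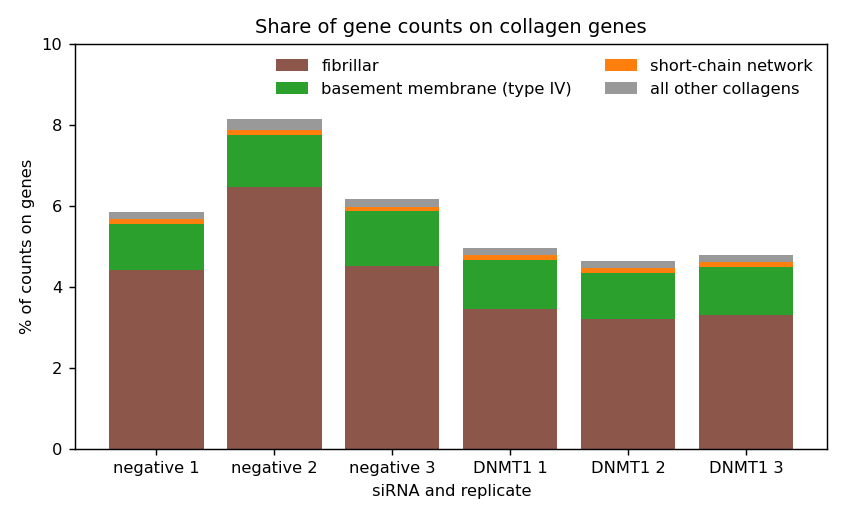
Percent of counts on genes that fell on collagen genes in each sample, stacked by class. The 3 DNMT1 siRNA samples stand at 4.63 to 4.95% and the negative siRNA samples at 5.86 to 8.14%, with the difference in the fibrillar part and type IV at a mean of 1.26% and 1.18%.

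Genes were called where the Benjamini-Hochberg adjusted p was below 0.05 and the fold change above 1.5 in either direction. By that rule 4 collagen genes rose, namely Col4a3, Col4a4, Col9a1 and Col24a1, and 7 fell, namely Col1a1, Col1a2, Col5a2, Col6a6, Col7a1, Col15a1 and Col18a1. Over all 15470 tested genes, 4.26% were called higher and 2.23% lower, 6.49% in all. The adjusted p alone, without the fold limit, gave the same 4 and 7 genes, beside 6.81% of all genes higher and 5.65% lower (12.5% in all). The median log2FC of the 38 tested collagen genes was -0.26, beside -0.0049 over all genes, with 14 values above 0 and 24 below. All 3 DNMT1 siRNA values lay above all 3 negative siRNA values for 6 collagen genes, as for 18.3% of all tested genes, and below for 14, as for 17.7% of all. By class, 1 of 10 tested fibrillar genes rose and 3 fell, 2 of 6 basement membrane genes rose and none fell, and none of 4 tested microfibril genes rose and 1 fell. Of the 18 other tested collagens, 1 rose and 3 fell. The 4 higher genes were all below 1 RPKM with negative siRNA, whereas the lower genes ranged from Col6a6 at 0.478 RPKM to Col1a1 at 3920. Reads on no gene made up 14.6 to 17.5% of uniquely mapped reads with negative siRNA and 24.4 to 32.0% with DNMT1 siRNA. The part of this library difference in the rises of genes at low level was not tested.

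**Figure D3:**
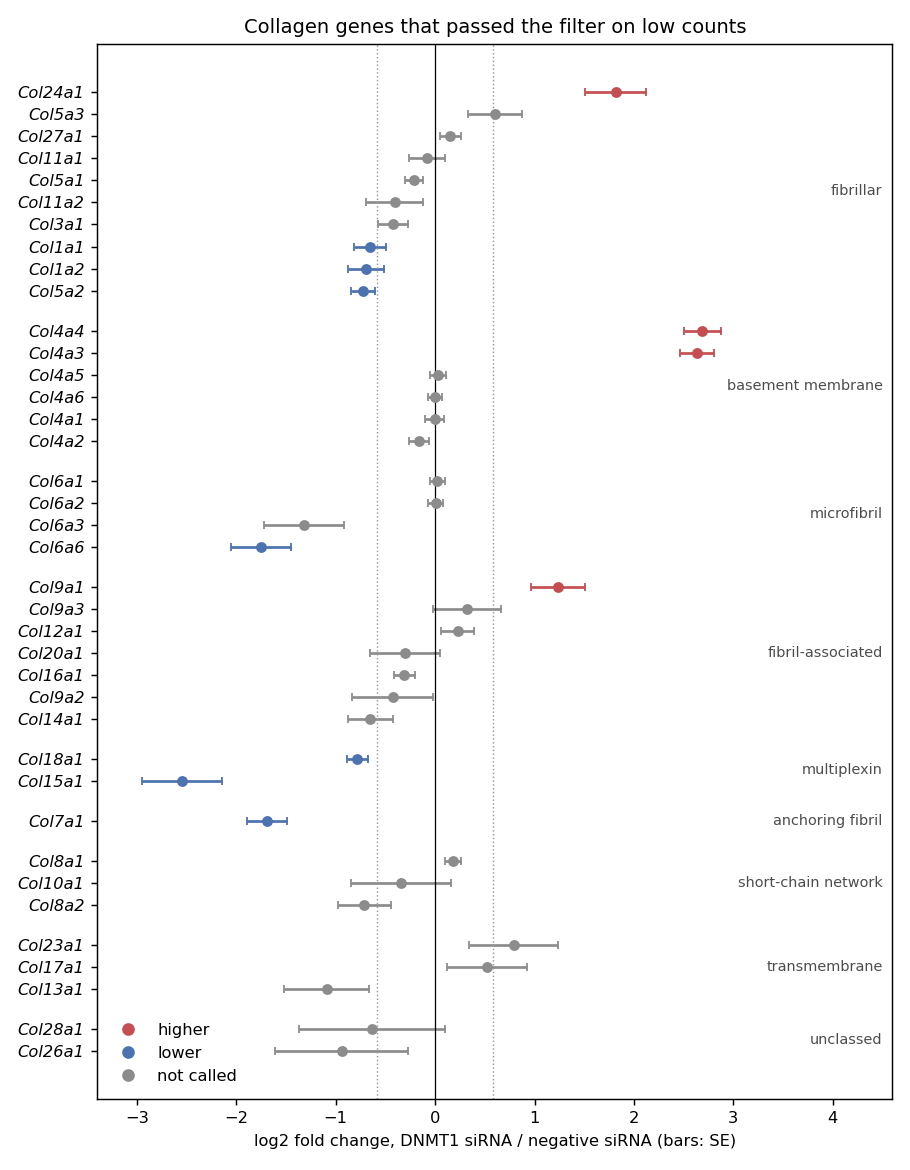
Log2 fold change of the 38 tested collagen genes, DNMT1 over negative siRNA, with bars of 1 SE, grouped by class. Dotted lines mark the fold limit of 1.5; Col4a4 (2.69) and Col4a3 (2.63) lie farthest right and Col15a1 (-2.55) farthest left.

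Col1a1 and Col1a2, the chains of collagen I, fell to about the same degree. Col1a1 (chr11:94936224-94953042) had normalized counts of 428238, 653662 and 432434 with negative siRNA and of 324483, 312275 and 325658 with DNMT1 siRNA. Its log2FC was -0.65 ± 0.164 (SE; adjusted p = 0.0376). Col1a2 (chr6:4504814-4541544) had 181847, 298437 and 195659 against 144077, 131771 and 141750 normalized counts. Its log2FC was -0.69 ± 0.177 (SE; adjusted p = 0.0394). The groups did not overlap for either gene, the DNMT1 siRNA samples lay close together, and negative siRNA replicate 2 was the highest of the 6. The ratio of Col1a1 to Col1a2 per transcript length was 2.12, 1.98 and 1.99 in the negative siRNA samples and 2.03, 2.14 and 2.07 in the DNMT1 siRNA samples, and the groups overlapped. Both calls were sensitive to single libraries. Without negative siRNA replicate 2 the log2FC values of Col1a1 and Col1a2 were -0.42 and -0.44 (adjusted p = 0.000873 and 0.00207), short of the fold limit. With any 1 DNMT1 siRNA replicate left out, the adjusted p of Col1a1 was 0.121 to 0.153 and that of Col1a2 was 0.115 to 0.162. Such fits called fewer genes of any kind, 255 to 316 higher and 112 to 146 lower against 659 and 345 in the main fit. With edgeR's newer quasi-dispersion estimate neither passed, with adjusted p of 0.0608 for Col1a1 and 0.0501 for Col1a2.

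Collagen V co-assembles with collagen I and limits fibril diameter, and its chains differed in their response. Col5a2 (chr1:45374321-45503282) had 99629, 136411 and 109371 normalized counts with negative siRNA and 71555, 66315 and 71450 with DNMT1 siRNA. The groups did not overlap, and its log2FC was -0.72 ± 0.121 (SE; adjusted p = 0.00889). Without negative siRNA replicate 2 it was -0.58, just short of the fold limit, and without DNMT1 siRNA replicate 2 the adjusted p was 0.0640. Col5a1 had 50575, 62592 and 55453 against 47999, 47917 and 49691 normalized counts, a log2FC of -0.21 ± 0.0922 (SE; adjusted p = 0.170) that did not pass the test. The ratio of Col5a1 to Col5a2 per length was 0.400, 0.362 and 0.400 with negative siRNA and 0.529, 0.569 and 0.548 with DNMT1 siRNA, with no overlap. The rare alpha 3 chain Col5a3 had 26.3, 40.7 and 49.0 against 55.0, 62.7 and 57.2 normalized counts and did not pass (log2FC 0.60 ± 0.268, SE; adjusted p = 0.181).

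Col3a1 lies next to Col5a2 on chromosome 1, 24614 bases away. It had 146345, 227306 and 173533 normalized counts with negative siRNA and 143113, 128837 and 136652 with DNMT1 siRNA. All 3 DNMT1 siRNA values were the lower ones, but the log2FC of -0.42 ± 0.152 (SE) had an adjusted p of 0.108. Per length, Col3a1 stood at 0.364, 0.371 and 0.428 of Col1a1 with negative siRNA and at 0.470, 0.440 and 0.447 with DNMT1 siRNA, without overlap. Col24a1, a minor fibrillar chain, was the only fibrillar gene to rise. Its normalized counts were 8.75, 14.5 and 9.33 with negative siRNA and 33.5, 37.9 and 44.2 with DNMT1 siRNA, from 12 to 27 raw counts per sample. Its log2FC was 1.82 ± 0.307 (SE; adjusted p = 0.00932), and without DNMT1 siRNA replicate 2 or 3 the adjusted p was 0.0573 or 0.0559. The other tested fibrillar genes Col11a1, Col11a2 and Col27a1 had log2FC values of -0.08, -0.41 and 0.15 and did not pass.

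Collagen IV exists as 3 kinds of trimer, one of Col4a1 and Col4a2 found in nearly all basement membranes, one of Col4a3, Col4a4 and Col4a5 best known from the kidney glomerulus, and one that holds Col4a5 and Col4a6. Col4a3 (chr1:82586921-82722059) had 169, 125 and 104 normalized counts with negative siRNA and 882, 831 and 774 with DNMT1 siRNA. Col4a4 (chr1:82448423-82586849) had 278, 177 and 187 against 1491, 1490 and 1164. For both genes the lowest DNMT1 siRNA value lay far above the highest negative siRNA value. The log2FC was 2.63 ± 0.167 (SE; adjusted p = 0.000313) for Col4a3, a rise of 6.21-fold. It was 2.69 ± 0.185 (SE; adjusted p = 0.00046) for Col4a4, a rise of 6.44-fold. Both genes were called in all 6 fits that left out 1 sample, with log2FC values of 2.49 to 2.85 for Col4a3 and 2.56 to 2.93 for Col4a4. Per length, Col4a3 stood at 0.717, 0.837 and 0.660 of Col4a4 with negative siRNA and at 0.699, 0.659 and 0.785 with DNMT1 siRNA, and the groups overlapped.

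The other 4 type IV chains stayed within narrow bounds. Col4a1 had 126931, 151025 and 155637 normalized counts with negative siRNA and 145515, 139542 and 147275 with DNMT1 siRNA. Its log2FC was -0.0042, with a 95% interval of -0.23 to 0.22. Col4a2 had 91713, 107547 and 115376 against 95825, 90106 and 95079 normalized counts, and its interval was -0.39 to 0.07. The groups overlapped for both genes, although Col4a1 stood at 1.35, 1.37 and 1.32 of Col4a2 per length with negative siRNA and at 1.48, 1.51 and 1.51 with DNMT1 siRNA, without overlap. Col4a5 had 14004, 14934 and 16474 against 15583, 15028 and 15665 normalized counts, with an interval of -0.15 to 0.21. Col4a6 had 4178, 4811 and 4286 against 4401, 4313 and 4524, with an interval of -0.17 to 0.16. None of the 4 intervals reached the fold limit of 1.5. Even after the rise, Col4a3 stood at 0.00445 of Col4a1 per length with DNMT1 siRNA, compared with 0.000729 before it.

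**Figure D4:**
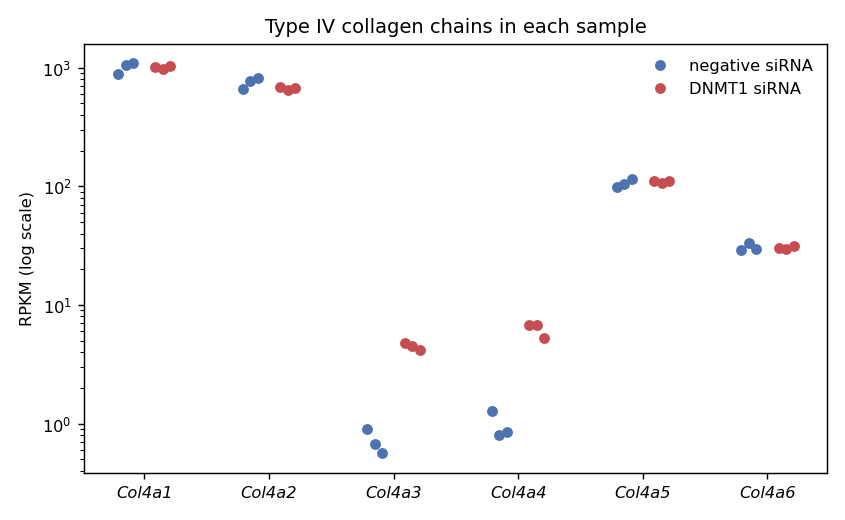
RPKM of the 6 type IV collagen chains in each sample on a log axis, negative siRNA in blue and DNMT1 siRNA in red, replicates from left to right. Col4a3 and Col4a4 separate by treatment, while Col4a1, Col4a2, Col4a5 and Col4a6 overlap.

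The genes on either side of the Col4a3 and Col4a4 pair did not pass the test. Rhbdd1, whose end lies 3056 bases from Col4a4, had 1036, 1073 and 1153 normalized counts against 927, 924 and 914, a log2FC of -0.24 ± 0.0719 (SE; adjusted p = 0.0665). Mff, 2830 bases beyond Col4a3, had 1535, 1486 and 1460 against 1533, 1513 and 1462, a log2FC of 0.01 ± 0.0638 (SE; adjusted p = 0.945). An antisense gene, C430014B12Rik, covers 5.65% of the exon bases of Col4a3 and held at most 8 raw counts in any sample. The library kit does not mark strand, so reads of Col4a3 and of this partner cannot be told apart there.

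Collagen VI is assembled from Col6a1, Col6a2 and a longer chain such as Col6a3, in whose place Col6a5 or Col6a6 can stand. Col6a1 had 7872, 7018 and 6831 normalized counts with negative siRNA and 7398, 7123 and 7520 with DNMT1 siRNA. Col6a2 had 3769, 3916 and 3393 against 3916, 3576 and 3647. Both groups overlapped, the 95% intervals of the log2FC were -0.15 to 0.19 and -0.17 to 0.18, and the sign of both values near 0 turned under DESeq2. The ratio of Col6a1 to Col6a2 per length was 1.89 ± 0.148 and 1.91 ± 0.0836 (SD, n = 3). Col6a3 had 3434, 9900 and 3099 normalized counts with negative siRNA and 2195, 1990 and 2403 with DNMT1 siRNA. It was lower in all 3 DNMT1 siRNA samples, but negative siRNA replicate 2 stood far above the others and the log2FC of -1.32 ± 0.403 (SE) did not pass (adjusted p = 0.0690). Without that sample it was -0.57 (adjusted p = 0.00256), short of the fold limit, and without negative siRNA replicate 1 or 3 it passed at -1.57 or -1.60. Col6a6 (chr9:105687809-105828160) had 122, 70.3 and 80.9 normalized counts with negative siRNA and 20.1, 33.5 and 27.8 with DNMT1 siRNA. The groups did not overlap, and it fell with a log2FC of -1.75 ± 0.298 (SE; adjusted p = 0.00955), or with an adjusted p of 0.0514 without DNMT1 siRNA replicate 1. Its neighbours Col6a5 and Col6a4, with 2 to 50 and 3 to 8 raw counts per sample, were not tested.

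Collagens XV and XVIII, the multiplexins, sit at the outer face of basement membranes, and their C-terminal fragments restin and endostatin are known to limit vessel growth. Col15a1 (chr4:47208161-47313167) had 2264, 7635 and 3333 normalized counts with negative siRNA and 721, 813 and 725 with DNMT1 siRNA. The lowest negative siRNA value was well above the highest DNMT1 siRNA value, with a wide spread among the negative siRNA samples. The log2FC was -2.55 ± 0.403 (SE; adjusted p = 0.00721), and -1.89 (adjusted p = 0.000132) without negative siRNA replicate 2. Col18a1 (chr10:77052178-77166548) had 3164, 4274 and 3674 against 2139, 2175 and 2147 normalized counts. It fell with a log2FC of -0.78 ± 0.105 (SE; adjusted p = 0.00359), and both multiplexins were called in all 6 fits that left out 1 sample. Per length, Col15a1 stood at 0.663, 1.65 and 0.840 of Col18a1 with negative siRNA and at 0.312, 0.346 and 0.313 with DNMT1 siRNA.

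Col7a1 encodes collagen VII, the anchoring fibril that ties the basement membrane of epithelia to the matrix below. Col7a1 (chr9:108953586-108984875) had 1392, 2293 and 1380 normalized counts with negative siRNA and 567, 529 and 473 with DNMT1 siRNA. All DNMT1 siRNA values lay below all negative siRNA values, and the log2FC was -1.69 ± 0.201 (SE; adjusted p = 0.00248). It was called in each of the 6 fits that left out a sample, with -1.40 without negative siRNA replicate 2.

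**Figure D5:**
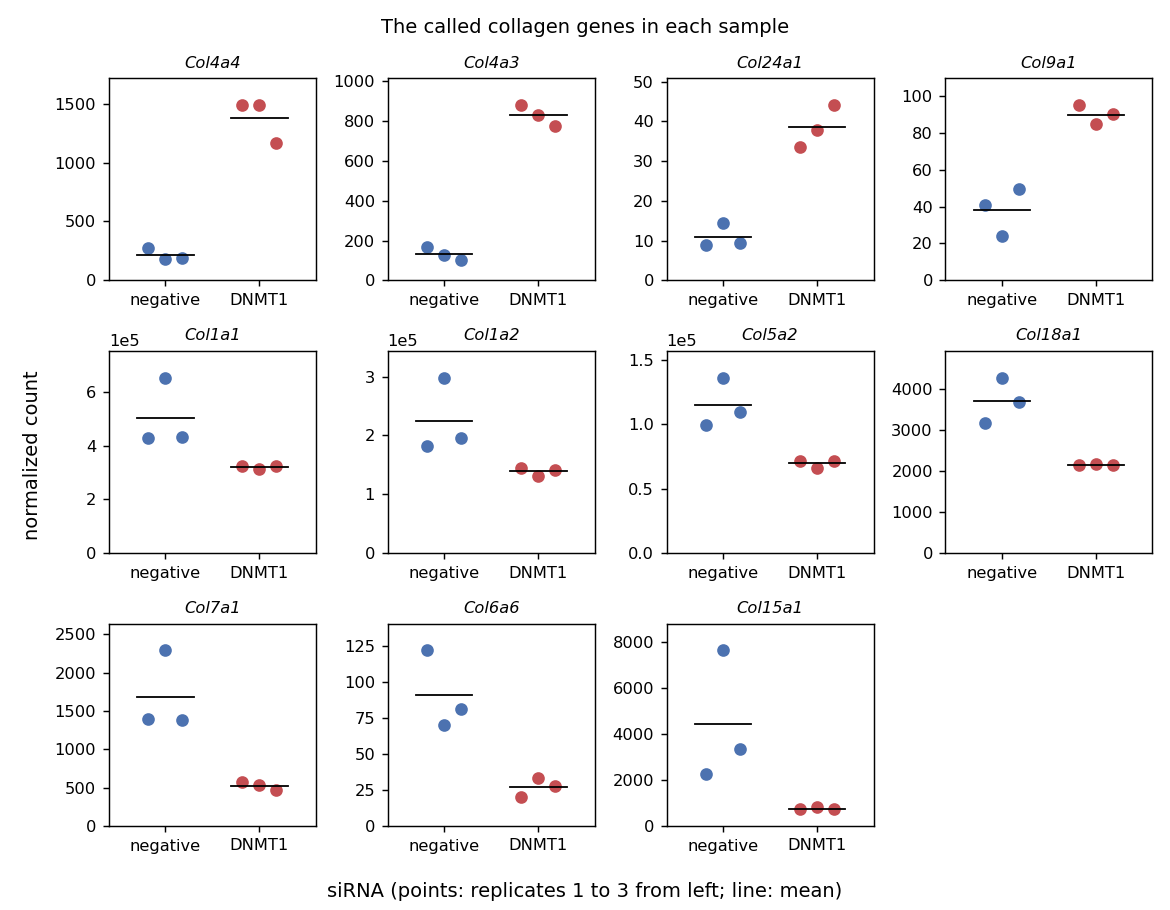
Normalized counts of the 11 called collagen genes in each of the 6 samples, with a line at each mean; every axis starts at 0. In all 11 panels the groups do not overlap, which choosing genes by their call favours. Over all tested genes, every DNMT1 siRNA value lay above for 18.3% and below for 17.7%. Negative siRNA replicate 2, the middle blue point, is the highest for Col1a1, Col1a2, Col5a2, Col7a1, Col15a1 and Col18a1.

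Fibril-associated collagens bind to the surface of fibrils and do not form fibrils themselves. Col9a1 (chr1:24177610-24252684), a chain of the cartilage collagen IX, had 40.8, 24.1 and 49.8 normalized counts with negative siRNA and 95.2, 84.5 and 90.0 with DNMT1 siRNA. It rose with a log2FC of 1.23 ± 0.271 (SE; adjusted p = 0.0244), which missed the limit with any 1 DNMT1 siRNA replicate left out (adjusted p from 0.0950 to 0.101). Col9a2, a partner chain, had 39.1, 84.1 and 32.7 against 51.0, 36.4 and 27.8, and Col9a3, which shares 6.07% of its exon bases with Tcfl5, had 11.7, 15.9 and 23.3 against 22.8, 21.9 and 17.99. Both genes overlapped between the groups and did not pass, with log2FC values of -0.42 ± 0.408 and 0.32 ± 0.342 (SE). Col16a1, the highest of this class, had 9067, 12037 and 11011 against 8760, 8545 and 8622 normalized counts. All its DNMT1 siRNA values were the lower ones, but it did not pass (log2FC -0.31 ± 0.102, SE; adjusted p = 0.0871). Col14a1, which binds collagen I fibrils, had 2174, 2226 and 4119 against 1778, 1724 and 1920 and an adjusted p of 0.101, and was called lower with no filter and without negative siRNA replicate 2. Col12a1 and Col20a1 had log2FC values of 0.23 and -0.30 and did not pass either. Of the 7 tested genes of the class, only Col9a1 was called.

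The short-chain collagens build hexagonal networks under endothelium and in growth cartilage. Col8a1 had 24517, 26573 and 23148 normalized counts with negative siRNA and 27503, 27578 and 29082 with DNMT1 siRNA. All the DNMT1 siRNA values were the higher ones, but the log2FC of 0.18 ± 0.0776 (SE) did not pass (adjusted p = 0.164). Its partner Col8a2 had 308, 623 and 330 against 279, 230 and 260 normalized counts, with a log2FC of -0.71 ± 0.264 (SE; adjusted p = 0.116). Among the transmembrane collagens, which sit in the plasma membrane, Col13a1 had 78.2, 238 and 90.2 against 63.0, 71.4 and 55.6 and Col23a1 had 40.3, 135 and 45.1 against 139, 146 and 94.9 normalized counts. Neither passed, with adjusted p of 0.134 and 0.284, and in both the value of negative siRNA replicate 2 was far from those of replicates 1 and 3. Col8a2 and Col13a1 were called lower by DESeq2 and with no filter on low counts, and Col23a1 was called higher with no filter and without negative siRNA replicate 2. Col10a1, Col17a1, Col26a1 and Col28a1 stayed below 50 normalized counts in every sample and did not pass.

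Collagen chains are hydroxylated, folded, secreted, trimmed and cross-linked by a shared set of proteins. Of 34 such genes 32 were tested, and 1 rose and none fell, with a median log2FC of -0.12, beside 4.26% of all tested genes called higher and 2.23% lower. The gene that rose was P3h2, a prolyl 3-hydroxylase that modifies collagen IV among others. It had 259, 302 and 392 normalized counts with negative siRNA and 672, 695 and 792 with DNMT1 siRNA. The groups did not overlap, and its log2FC was 1.18 ± 0.153 (SE; adjusted p = 0.00325). The adjusted p was also below 0.05, but the change below the fold limit, for Tmem38b (0.41), Creb3l1 (-0.33) and Adamts2 (-0.35). The collagen chaperone gene Serpinh1 had a log2FC of -0.12 ± 0.114 (SE; adjusted p = 0.519) and the cross-linking enzyme gene Lox one of 0.18 ± 0.0947 (SE; adjusted p = 0.246). The genes of this list summed to 11910 to 14397 CPM with negative siRNA and 12420 to 13205 with DNMT1 siRNA, overlapping ranges.

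Of 10 genes for collagen receptors 8 were tested, 1 rose and none fell, and the median log2FC was 0.13, again beside 4.26% and 2.23% of all tested genes. Itga10, the alpha 10 chain of a collagen-binding integrin, had 111, 166 and 128 normalized counts with negative siRNA and 353, 366 and 345 with DNMT1 siRNA. It rose without overlap, with a log2FC of 1.39 ± 0.158 (SE; adjusted p = 0.00206). Ddr1, a receptor tyrosine kinase for collagen, had 10629, 8955 and 10718 against 13985, 13683 and 13432 normalized counts. Its log2FC of 0.44 ± 0.0845 (SE; adjusted p = 0.0157) stayed below the fold limit. Ddr2, Itga1, Itga11, Itgb1 and Mrc2 had values between -0.22 and 0.23 with adjusted p above 0.05, and Itga2, with 8.54 and 21.5 mean normalized counts, had an adjusted p of 0.0753.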

How the data were processed

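The authors sequenced polyA RNA libraries of a kit that does not mark strand with single-end reads in a pooled run, checked them with FastQC, mapped them to mm10 with TopHat2 and counted them on Ensembl GRCm38 genes with HTSeq, whose versions are not given in the sources used here. The values deposited by the authors are raw counts per gene, 1 table per sample, without normalization. Reads on no gene (14.6 to 17.5% of the uniquely mapped reads with negative siRNA, 24.4 to 32.0% with DNMT1 siRNA) and ambiguous reads (3.58 to 3.65% and 6.02 to 6.35%) stayed out of library sizes and tests. Replicates of a treatment differed by more than sampling noise. The chi-square per degree of freedom was 28.9 to 59.7 between negative siRNA samples and 2.89 to 10.7 between DNMT1 siRNA samples. The fit set 1 dispersion per gene over both groups, so each SE pools their unlike spread.

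Counts were tested in R 4.3.3 with edgeR 4.0.16 (TMM, filterByExpr with a minimum count of 10 and a minimum total of 15, glmQLFit in its legacy form, quasi-likelihood F test, no block), with the limits of the study. Benjamini-Hochberg adjustment covered 15470 genes, and genes with an adjusted p below 0.05 and a fold change above 1.5 were called. The SE was taken from the log2 fold change and its F statistic. Normalized counts are counts scaled to the geometric mean of the TMM library sizes, and RPKM uses the longest principal transcript. Symbols and positions came from a newer GRCm38 annotation, which held 42548 of 43629 genes, and promoter windows from RefSeq. Figures were drawn with matplotlib 3.10.9. Alternatives were DESeq2 1.42.0, RLE size factors, other filters, a replicate block, thinned libraries, no fold limit, other denominators of the share and leaving out each sample. The smallest p of an exact permutation test on 3 against 3 samples is 0.1, so none was run. The fit was tested on counts simulated for 15470 genes, 200 of them changed. It recovered 159 of these, 68 with a log2 change of 1 in size and 91 with 2, and made 10 false calls.

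Named were all called collagen genes, those of the same type number, the 2 highest per length in the fibrillar, basement membrane and microfibril classes and in the rest, and called genes of the biosynthesis and receptor lists. Other collagen genes, the flanking genes and the uncalled genes of both lists were added after their values were seen. The members, classes and lists were chosen with earlier results of these data known.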

Additional observations from a re-analysis of the deposited data

How the results depend on the processing

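Of the 11 called collagen genes, the 4 higher and 7 lower ones were called again with RLE size factors, DESeq2, at least 10 counts in every sample and thinned libraries. They were also called with no filter, but that fit gave far smaller adjusted p, such as 2.62e-47 for Col6a3 against 0.0690 in the main fit. Calls with no filter were therefore not taken as support. With no filter the counts were 6 higher and 12 lower, with Col22a1 and Col23a1 added to the higher and Col6a3, Col6a5, Col8a2, Col13a1 and Col14a1 to the lower ones. With DESeq2 they were 4 and 9, with Col8a2 and Col13a1 added to the lower ones, and the cause was not tested. The fits with no filter and with DESeq2 tested 31775 and 31771 genes, of which 994 and 652 were called higher and 701 and 491 lower. Their median log2 fold changes over all tested genes were 0.11 and 0.14. The median was -0.0049 over the 15470 genes of the main fit. With the replicate number as a block, 4 collagen genes were higher and 5 lower (513 and 285 over all genes, against 659 and 345), and Col1a1 and Col1a2 had adjusted p of 0.0605 and 0.0683, while no other collagen call changed. The numbers gave no sign of pairs. Deviations of equal-numbered samples correlated at 0.0064, -0.0208 and 0.0274 and those of unequal-numbered ones at -0.0764 to 0.065. With 3 samples per group this cannot exclude shared litters. The newer quasi-dispersion estimate, chosen after seeing the data, also gave 4 and 5, again without Col1a1 and Col1a2. Leaving out 1 sample gave 2 to 5 higher and 4 to 8 lower genes and a share difference of -2.37 to -1.23 percentage points. Over all genes these fits called 255 to 823 higher and 112 to 472 lower. Without a DNMT1 siRNA sample they called 255 to 316 higher and 112 to 146 lower. With no fold limit 4 biosynthesis and 2 receptor genes passed, and 2 receptor genes also passed with no filter or thinned libraries, against 1 each. Among the named genes fitted under each alternative, signs turned for Col4a1, Col4a5, Col4a6, Col6a1, Col6a2 and Col9a2, none of them called. Col4a1 was 0.000387, 0.00105 and 0.00164 with 10 counts in every sample, the block and thinning, and Col4a6 was 0.000632 with 10 counts in every sample. With no filter Col4a5 was -0.00261, Col6a1 -0.0097 and Col6a2 -0.0227. With DESeq2 Col6a1 was -0.00492 and Col6a2 -0.0174, and with thinning Col6a2 was -0.0144. Leaving out 1 sample gave -0.0890 to 0.0530 for Col4a1, -0.0254 to 0.0930 for Col4a5, -0.0433 to 0.0602 for Col4a6, -0.0186 to 0.0859 for Col6a1, -0.0563 to 0.0520 for Col6a2 and -0.712 to 0.106 for Col9a2. Depth limits Col24a1, Col9a1, Col6a6 and the 6 untested genes, which rest on few counts.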
